A study of Mus musculus with 8 samples.

Results

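Wfdc, Spink and Spint genes encode small secreted or membrane-bound protease inhibitors, and they were described here across sperm and epididymis of the mouse. Members were all genes whose platform symbol is Wfdc, Spink or Spint followed by a number, together with Eppin, taking probe sets assigned to 1 gene and, for each gene, the probe set with the highest mean over the 8 arrays. This gave 36 of the 19411 genes on the array, namely 18 members with a Wfdc name, 12 with a Spink name, 5 with a Spint name and Eppin. The animals were C57/Bl6 mice. Control and low protein males were kept on their diet until they were 9 to 12 weeks old, while the labels do not say how old the caloric restriction animals were. Sperm came from the cauda of the epididymis and was over 99.5% pure under the microscope, and preparations with Actb or Myh11 detectable by quantitative PCR, both markers of somatic tissue, had been thrown away. Sperm of 3 control, 2 low protein and 1 caloric restriction samples were hybridised, and epididymal tissue of 1 control and 1 low protein sample. Whether an array held 1 animal or a pool, and which region of the epididymis was taken as tissue, is not stated in the labels.

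The WFDC domain, named after whey acidic protein, the Kazal domain of the SPINK proteins and the Kunitz domain of the SPINT proteins are compact folds held by disulfide bonds. A loop of a Kazal or Kunitz domain enters the active site of a serine protease and blocks it, while many WFDC proteins also act against microbes. In the epididymis, principal cells secrete such inhibitors into the lumen where sperm mature. Eppin, which joins a WFDC and a Kunitz domain, coats human sperm and binds semenogelin there. In developing sperm, SPINK2 sits in the acrosome and holds back acrosin, a protease of the acrosome.

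Values are log2 intensities, so a difference of 1 is a factor of 2 in signal, and each gene is compared with itself across arrays, since probe sets of different genes do not share a scale. The arrays carry no read depth, and their number limits the precision. Genes in the lowest 30% by mean over all arrays (log2 5.69 and below) were left out of testing, which left 13587 genes and 26 of the 36 members. Just inside that limit stood Wfdc21 (mean 5.79) and Wfdc5 (5.90), and just outside stood Wfdc12 and Wfdc6b (both 5.58). A gene was called where its adjusted p was under 0.05 by limma, with Benjamini-Hochberg adjustment over the 13587 genes. In bulk RNA, fewer cells of a type and less RNA per cell cannot be told apart.

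The tissue labels were checked against marker genes. The mean log2 level of 15 late spermatid and sperm markers was 9.51 to 9.88 in control sperm, 10.26 and 10.64 under low protein and 10.55 under caloric restriction, against 6.82 and 6.76 in control and low protein epididymis. Of 19 epididymal epithelium markers on the array 9 were tested, among them Adam7, Aqp9, Cd52 and Krt5. Against 30.1% of all tested genes, 7 of these 9 markers fell in sperm. Their mean level was 9.14 and 9.02 in epididymis, 8.01 to 8.21 in control sperm, 7.80 and 7.38 under low protein and 7.56 under caloric restriction. Several markers of the proximal epididymis were dim in the epididymis arrays, with Lcn8 at 4.73 and 5.21, Ros1 at 5.57 and 5.54 and Ovch2 at 4.76 and 4.80. Others of the same epithelium list were brighter there, with Crisp4 at 7.08 and 6.79, Rnase9 at 6.85 and 6.30 and Gpx5 at 7.25 and 6.84. The region held by these arrays was not tested. Low protein replicate 2 stood apart from the other sperm arrays (Pearson's r of 0.71 to 0.86 over the tested genes, against 0.85 to 0.98 among the others). It was also the sperm array least like the epididymis arrays, with r of 0.34 and 0.35. This r was 0.71 to 0.82 for control sperm, 0.66 and 0.67 for low protein replicate 1 and 0.54 and 0.55 for caloric restriction. Results that rest on low protein replicate 2 are given with and without it.

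Most tested members were brighter in epididymis than in sperm. Of 26, 15 fell in sperm, 4 rose, and 7 did not pass, while over all tested genes 48.5% were called, 30.1% lower and 18.4% higher. After cyclic loess the members split in the same way, while of all genes called 3497 were higher and 3388 lower, against 2501 and 4093. The median difference, sperm minus epididymis, was -1.03 over the 26 members and -0.08 over all 13587 genes. Both epididymis arrays lay above all 6 sperm arrays for 15 of the 26 members, against 35.6% of all tested genes. They lay below all 6 for 4 of the 26, against 24.8% of all. These were the members called lower and higher on the same arrays, so the separation is not separate evidence. Differences of the 15 ran from -0.62 for Wfdc1 to -2.36 for Spint3 on the log2 scale. The fit used tissue and diet as additive terms, so that 5 sperm and 2 epididymis arrays set the difference and the caloric restriction array had a term of its own. Without the low protein epididymis array only 6 members were called (Spint2, Spint3, Wfdc6a and Wfdc13 lower, Spink2 and Wfdc15a higher), beside 20.2% of all genes. Without the control epididymis array 17 were called, beside 37.1% of all genes, and the cause of the drop was not tested.

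**Figure D1:**
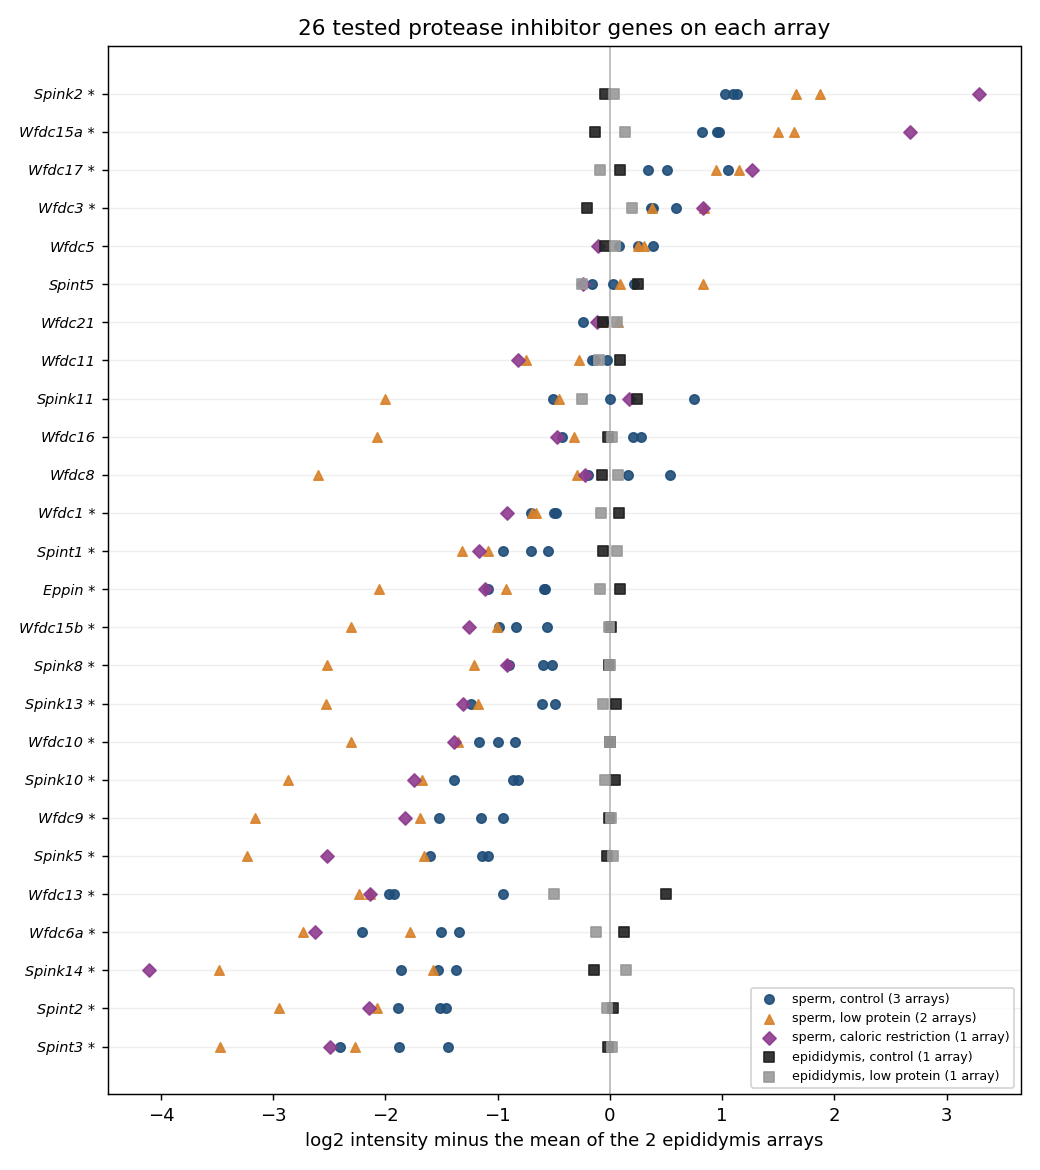
Each point is the log2 intensity of 1 of the 26 tested members on 1 array minus the mean of the 2 epididymis arrays (x axis), with genes ordered by the fitted difference and an asterisk where the adjusted p by limma was under 0.05. The 15 genes with an asterisk in the lower part have all 6 sperm arrays left of both epididymis arrays, Spink2 and Wfdc15a lie farthest to the right, and the leftmost low protein triangle of most genes is replicate 2.

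Of the Kunitz genes, Spint1, Spint2 and Spint3 fell in sperm, while Spint5 did not pass and Spint4 was too dim to test. Spint3, a secreted Kunitz protein, had log2 levels of 7.49, 8.45 and 8.02 in the control, 7.62 and 6.42 in the low protein and 7.40 in the caloric restriction sperm, and 9.87 and 9.92 in the control and low protein epididymis. All sperm arrays were well below both tissue arrays, and the signal fell by 2.36 ± 0.38 (SE; 5 sperm and 2 epididymis arrays; adjusted p by limma 0.0013). Spint2, a membrane-anchored inhibitor of matriptase, prostasin and the activator of hepatocyte growth factor, read 9.35, 9.73 and 9.78 in the control, 9.17 and 8.29 in the low protein and 9.09 in the caloric restriction sperm, and 11.26 and 11.22 in the control and low protein epididymis. Here too no sperm array reached the tissue, and the level fell by 2.04 ± 0.28 (adjusted p by limma 0.0006). Its relative Spint1, which restrains matriptase at epithelial junctions, stood at 7.21, 7.46 and 7.62 in the control, 7.08 and 6.85 in the low protein and 7.005 in the caloric restriction sperm, and 8.11 and 8.23 in the control and low protein epididymis, and fell by 0.95 ± 0.19. Spint5 gave 6.12, 5.94 and 5.74 in the control, 6.0 and 6.73 in the low protein and 5.67 in the caloric restriction sperm, and 6.16 and 5.66 in the control and low protein epididymis, with the groups overlapping and a difference of 0.22 ± 0.26 (adjusted p by limma 0.515).

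Genes whose products carry a WFDC and a Kunitz domain are Eppin, Wfdc6a, Wfdc6b and Wfdc8. For Eppin the arrays gave 7.86, 8.36 and 8.36 in the control, 8.02 and 6.88 in the low protein and 7.83 in the caloric restriction sperm, and 9.03 and 8.85 in the control and low protein epididymis. Every sperm array was below the tissue, low protein replicate 2 by most, and the level fell by 1.10 ± 0.30 (adjusted p by limma 0.0164; -0.70 and 0.0932 after quantile normalization). Wfdc6a read 7.61, 8.47 and 8.31 in the control, 8.03 and 7.08 in the low protein and 7.19 in the caloric restriction sperm, and 9.94 and 9.69 in the control and low protein epididymis, and fell by 1.96 ± 0.30 (adjusted p by limma 0.00108). In contrast, Wfdc8 measured 11.06, 11.42 and 11.79 in the control, 10.96 and 8.65 in the low protein and 11.03 in the caloric restriction sperm, and 11.19 and 11.32 in the control and low protein epididymis. Control sperm and tissue overlapped for Wfdc8, only low protein replicate 2 was far below, and the difference of -0.59 ± 0.59 did not pass (adjusted p by limma 0.425). The annotated spans of Wfdc8 and Wfdc6b overlap, as do those of Wfdc9 and Wfdc10 and those of Spink10 with Spink7 and Spink13. Wfdc8 and Wfdc9 lie on the minus strand, Wfdc6b and Wfdc10 on the plus strand. Whether a probe set of one reads the other was not tested.

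WFDC genes without a Kunitz domain were split in direction. Wfdc15b, whose product SWAM1 is an antibacterial protein of mouse kidney and epididymis, had levels of 11.87, 12.15 and 11.73 in the control, 11.71 and 10.40 in the low protein and 11.46 in the caloric restriction sperm, and 12.72 and 12.70 in the control and low protein epididymis. It fell by 1.20 ± 0.34 in sperm (adjusted p by limma 0.018). Wfdc10 gave 11.34, 11.66 and 11.51 in the control, 11.15 and 10.20 in the low protein and 11.12 in the caloric restriction sperm, and 12.51 and 12.51 in the control and low protein epididymis, and its neighbour Wfdc9 gave 9.34, 9.91 and 9.72 in the control, 9.17 and 7.70 in the low protein and 9.04 in the caloric restriction sperm, and 10.86 and 10.88 in the control and low protein epididymis. Both were lower on every sperm array, with differences of -1.39 ± 0.28 for Wfdc10 and -1.78 ± 0.40 for Wfdc9. For Wfdc13 the values were 6.23, 7.21 and 6.19 in the control, 6.02 and 5.92 in the low protein and 6.01 in the caloric restriction sperm, and 8.66 and 7.65 in the control and low protein epididymis, and it fell by 1.91 ± 0.28 despite tissue arrays that differed from each other by more than those of any other tested member. The stromal gene Wfdc1, whose product was described as a growth inhibitor of prostate stroma, read 6.41, 6.39 and 6.19 in the control, 6.19 and 6.23 in the low protein and 5.97 in the caloric restriction sperm, and 6.97 and 6.81 in the control and low protein epididymis, and showed the smallest fall that passed (-0.62 ± 0.14, adjusted p by limma 0.0063, and 0.0611 without the control epididymis array).

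Of the Kazal genes 5 fell. Spink14 had levels of 8.99, 9.15 and 8.66 in the control, 8.94 and 7.04 in the low protein and 6.42 in the caloric restriction sperm, and 10.38 and 10.66 in the control and low protein epididymis. The caloric restriction array was the lowest here, and the difference, which that array does not enter, was -2.03 ± 0.47 (adjusted p by limma 0.00738). Spink5, whose product LEKTI has many Kazal domains and inhibits kallikreins of the skin, gave 9.55, 10.01 and 10.07 in the control, 9.50 and 7.92 in the low protein and 8.63 in the caloric restriction sperm, and 11.13 and 11.18 in the control and low protein epididymis, and it fell by 1.83 ± 0.42. Spink10 read 10.01, 10.58 and 10.54 in the control, 9.73 and 8.53 in the low protein and 9.66 in the caloric restriction sperm, and 11.44 and 11.36 in the control and low protein epididymis, and fell by 1.61 ± 0.36. Low protein replicate 2 held the lowest sperm value for Spink5 and Spink10. For Spink8 the arrays gave 11.51, 11.90 and 11.82 in the control, 11.20 and 9.89 in the low protein and 11.50 in the caloric restriction sperm, and 12.40 and 12.41 in the control and low protein epididymis, and for Spink13, which protects the acrosome of rat sperm, they gave 6.14, 6.77 and 6.89 in the control, 6.20 and 4.86 in the low protein and 6.07 in the caloric restriction sperm, and 7.44 and 7.32 in the control and low protein epididymis. Their differences were -1.23 ± 0.37 and -1.29 ± 0.38 (adjusted p by limma 0.023 and 0.0216), and the call for Spink13 was lost after quantile normalization (0.051). Without control sperm replicate 1 the calls of both Spink8 (0.0566) and Spink13 (0.0548) were lost.

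Set against the epididymis as a ratio of intensities, the 15 members that fell had 27.6% to 68.0% of its signal in control sperm. Without detection values, whether each sperm signal exceeded background was not tested. Control sperm held 27.6% ± 8.9 (SD, n = 3) of the epididymal signal of Spint3, 32.7% ± 5.0 (SD, n = 3) of Spint2, 50.1% ± 5.5 (SD, n = 3) of Wfdc10, 60.2% ± 11.3 (SD, n = 3) of Eppin and 63.4% ± 8.6 (SD, n = 3) of Spink8. These are ratios on the array scale, which background signal raises, and not shares of RNA. Over the 15 genes that fell the median ratio was 38.1%, 55.6% and 50.1% on the control arrays, 33.5% and 17.4% on the low protein arrays and 29.9% on the caloric restriction array. For the 9 epithelium markers the same ratio was 42.5%, 50.7% and 49.5%, then 44.3% and 21.7%, and 30.5%. Markers of smooth muscle lay lower, at 11.3% to 15.1% in control sperm. On each control array those of fibroblasts (52.6% to 72.1%) and leukocytes (71% to 103%) lay higher. So did those of endothelium (61.5% to 72.5%, 2 genes) and adipocytes (101% to 135%, 2 genes). The 15 members had been taken because they fell, the markers had not. The part of epididymal RNA in the sperm values was not tested.

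Wfdc8, Wfdc16, Wfdc11 and Spink11 had control sperm signals close to those of the tissue. Wfdc16 gave 9.49, 10.12 and 10.19 in the control, 9.60 and 7.84 in the low protein and 9.44 in the caloric restriction sperm, and 9.90 and 9.93 in the control and low protein epididymis. Wfdc11 gave 7.73, 7.87 and 7.77 in the control, 7.62 and 7.15 in the low protein and 7.07 in the caloric restriction sperm, and 7.99 and 7.80 in the control and low protein epididymis, and Spink11 gave 6.58, 7.08 and 7.83 in the control, 6.63 and 5.09 in the low protein and 7.25 in the caloric restriction sperm, and 7.33 and 6.84 in the control and low protein epididymis. Control sperm held 115% ± 28.9 (SD, n = 3) of the epididymal signal for Wfdc8, 104% ± 25.5 (SD, n = 3) for Wfdc16, 93% ± 4.7 (SD, n = 3) for Wfdc11 and 113% ± 50.1 (SD, n = 3) for Spink11. Their differences, -0.59 ± 0.59, -0.55 ± 0.46, -0.30 ± 0.17 and -0.55 ± 0.45, did not pass (adjusted p by limma 0.425, 0.341, 0.157 and 0.327). Without the low protein epididymis array the first 2 of these were 0.24 and 0.04, and after cyclic loess Wfdc11 was 0.03. Low protein replicate 2 was the lowest sperm array for Wfdc8, Wfdc16 and Spink11. With Spint5 above, Wfdc5 and Wfdc21 completed the tested members without a call, at 0.26 ± 0.14 and -0.06 ± 0.14.

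Spink2, Wfdc15a, Wfdc17 and Wfdc3 rose in sperm. Spink2 had levels of 8.08, 7.97 and 8.04 in the control, 8.60 and 8.81 in the low protein and 10.23 in the caloric restriction sperm, and 6.90 and 6.98 in the control and low protein epididymis. The 3 groups of sperm arrays did not overlap, all lay above the tissue, and the rise was 1.41 ± 0.17 (adjusted p by limma 0.00035). Wfdc15a read 7.49, 7.46 and 7.33 in the control, 8.01 and 8.15 in the low protein and 9.18 in the caloric restriction sperm, and 6.38 and 6.65 in the control and low protein epididymis, in the same order of groups, with a rise of 1.23 ± 0.15 (adjusted p by limma 0.00037). In control sperm the signal was 212% ± 7.7 (SD, n = 3) of the epididymis for Spink2 and 189% ± 10.8 (SD, n = 3) for Wfdc15a.

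Wfdc17, known as a product of activated macrophages, gave 6.27, 6.10 and 6.82 in the control, 6.71 and 6.91 in the low protein and 7.03 in the caloric restriction sperm, and 5.85 and 5.68 in the control and low protein epididymis. It rose by 0.82 ± 0.23 (adjusted p by limma 0.0162). Of 8 leukocyte markers 1 rose in the same comparison, against 18.4% of all tested genes called higher. This was the lysozyme gene Lyz2, which rose by 1.25 ± 0.45. Its levels were 8.68, 8.03 and 9.74 in the control, 9.53 and 9.51 in the low protein and 10.04 in the caloric restriction sperm. In the control and low protein epididymis it read 8.27 and 7.49. The mean level of the 8 markers was 6.90 to 7.58 in control sperm, 7.46 and 7.50 under low protein, 7.55 under caloric restriction, and 7.58 and 7.10 in epididymis, and its part in the Wfdc17 value was not tested. Wfdc3 stood at 6.84, 6.63 and 6.61 in the control, 6.62 and 7.09 in the low protein and 7.08 in the caloric restriction sperm, and 6.05 and 6.45 in the control and low protein epididymis. Its rise of 0.53 ± 0.17 (adjusted p by limma 0.0314) was lost without any 1 control sperm array or either epididymis array. A second probe set of Wfdc3, the only member with more than 1, differed by 0.69 between the means of the same arrays, against 0.51 for the one used.

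Of the 36 members 19 lie on chromosome 2, 9 on chromosome 18, 3 on chromosome 11 and 1 each on chromosomes 4, 5, 7, 8 and 9, by the RefSeq annotation of GRCm38. Along chromosome 2 the order is Spint1, Wfdc5, Wfdc12, Wfdc15a, Wfdc15b, Wfdc2, Spint3, Wfdc6a, Eppin, Wfdc8, Wfdc6b, Wfdc16, Wfdc9, Wfdc10, Wfdc11, Wfdc13, Spint4, Spint5 and Wfdc3. Of these, 8 fell in sperm (Spint1, Wfdc15b, Spint3, Wfdc6a, Eppin, Wfdc9, Wfdc10 and Wfdc13), 2 rose (Wfdc15a and Wfdc3), 5 did not pass and 4 were too dim to test. Wfdc15a and Wfdc15b are next to each other in this order and went in opposite directions. On chromosome 18, Spink5, Spink14, Spink10 and Spink13 fell, Spink11 did not pass and 4 were too dim. Over all chromosomes 15 of the 26 tested members fell and 4 rose. Of all tested genes 30.1% were called lower and 18.4% higher.

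**Figure D2:**
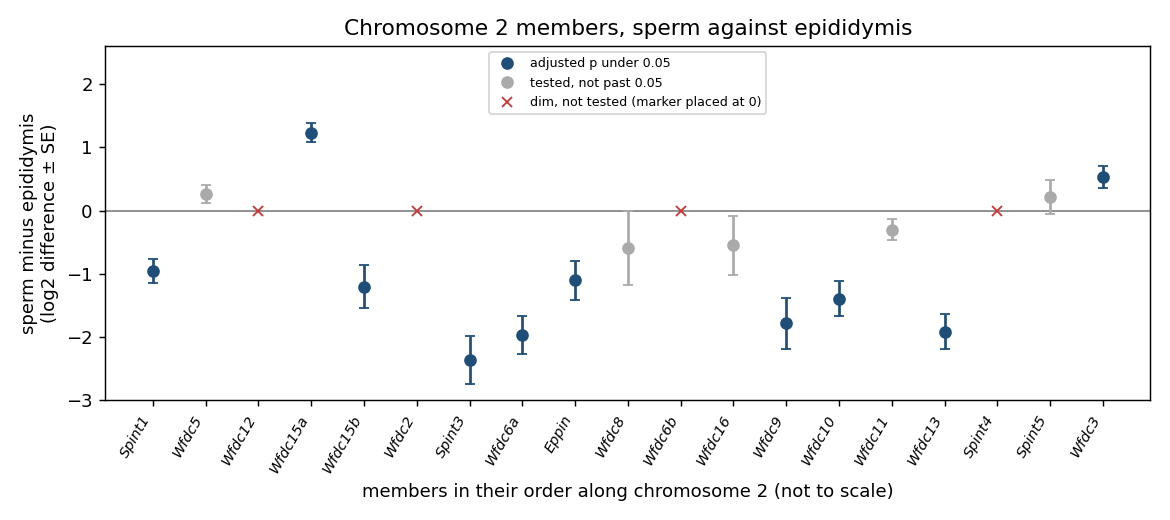
The y axis gives the fitted log2 difference, sperm minus epididymis, with its SE for the 15 tested members on chromosome 2, in the order of all 19 along the chromosome (x axis, not to scale), with the 4 too dim to test as crosses at 0 that stand for no value. Wfdc15a at 1.23 stands directly beside Wfdc15b at -1.20, and the lowest point is Spint3 at -2.36.

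The promoters of these neighbours, and that of Spint3, the member with the largest fall, are shown so that their sequences can be set beside the values. Each is the 250 bases before the annotated start, from RefSeq (GRCm38.p6), minus strand, with matches to the searched motifs in capitals. The coordinates are chr2:164200118-164200367 for Wfdc15a, chr2:164221664-164221913 for Wfdc15b and chr2:164573457-164573706 for Spint3. The sources used here do not give the build behind the array annotation.
Wfdc15a: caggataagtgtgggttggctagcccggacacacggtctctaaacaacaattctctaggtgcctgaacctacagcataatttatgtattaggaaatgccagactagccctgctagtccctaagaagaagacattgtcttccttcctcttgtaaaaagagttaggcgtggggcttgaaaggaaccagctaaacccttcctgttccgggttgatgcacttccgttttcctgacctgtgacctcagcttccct
Wfdc15b: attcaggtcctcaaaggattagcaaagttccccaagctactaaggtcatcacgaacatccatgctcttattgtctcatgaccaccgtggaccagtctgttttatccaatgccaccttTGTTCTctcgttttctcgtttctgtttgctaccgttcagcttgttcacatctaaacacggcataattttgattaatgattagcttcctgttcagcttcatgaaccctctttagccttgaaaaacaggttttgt
Spint3: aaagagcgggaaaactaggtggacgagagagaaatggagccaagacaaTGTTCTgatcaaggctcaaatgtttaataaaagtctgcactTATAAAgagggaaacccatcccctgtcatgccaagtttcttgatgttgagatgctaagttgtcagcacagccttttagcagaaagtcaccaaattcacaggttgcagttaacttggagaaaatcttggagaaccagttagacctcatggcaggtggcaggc
The motifs were the androgen receptor half-site AGAACA, the core TGACGT of the cAMP response element and the TATA box letters TATAAA, each on both strands (TGTTCT is the half-site read from the other strand). In all 32851 promoters of the table, 16.1% held the first, 6.47% the second and 12.4% the third. Promoters were listed for 21 of the 36 members, 26 in all. The half-site was found for Spint3, Wfdc11 and Wfdc15b, and the cAMP response element core for none. The TATA box letters were found for Spint3, Wfdc18 and 1 of the 2 listed promoters of Wfdc8. Wfdc15a held none of the motifs in this window. A match describes these letters only and does not show a binding site.

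The 10 members left out as dim had means between 3.37 and 5.58 over all arrays. They include Wfdc2, the gene of human epididymis protein 4, which read 5.69, 5.72 and 5.38 in the control, 5.25 and 5.59 in the low protein and 5.34 in the caloric restriction sperm, and 5.47 and 5.59 in the control and low protein epididymis. The tissue difference of Wfdc2 was -0.01. Spink1, the gene of the pancreatic secretory trypsin inhibitor, stood at 3.26, 3.28 and 3.29 in the control, 3.49 and 3.70 in the low protein and 3.51 in the caloric restriction sperm, and 3.41 and 3.03 in the control and low protein epididymis. Wfdc6b and Spink12 were above the limit only in epididymis, Wfdc6b with 5.49, 5.65 and 5.63 in the control, 5.33 and 4.44 in the low protein and 5.05 in the caloric restriction sperm, and 6.42 and 6.67 in the control and low protein epididymis and Spink12 with 5.30, 4.83 and 5.50 in the control, 5.48 and 5.29 in the low protein and 4.76 in the caloric restriction sperm, and 6.18 and 6.12 in the control and low protein epididymis. In a fit without the filter, over 19411 genes, these were the dim members called, at -1.28 (adjusted p by limma 0.00467) and -0.86 (0.00723). Spink1, Wfdc2, Wfdc12, Spink4, Spink6, Spink7, Spint4 and Wfdc18 were not called there. Their differences ran from -0.41 for Spint4 to 0.21 for Spink6.

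Serine proteases and their relatives, and other inhibitors, were compared in the same fit. Which of these proteases the members act on was not tested. Of 65 listed serine proteases and relatives 35 were tested, and 14 rose and 6 fell in sperm. Over all tested genes 18.4% were called higher and 30.1% lower. Acr, the gene of acrosin, read 6.64, 6.67 and 6.58 in the control, 7.01 and 6.81 in the low protein and 8.43 in the caloric restriction sperm, and 5.92 and 5.73 in the control and low protein epididymis, a rise of 0.93 ± 0.16 (adjusted p by limma 0.0017), and Prss21, the gene of testisin, read 6.06, 6.30 and 6.002 in the control, 6.50 and 7.14 in the low protein and 7.43 in the caloric restriction sperm, and 5.39 and 5.26 in the control and low protein epididymis, a rise of 1.12 ± 0.24. The largest rises were those of Prss39 (2.61 ± 0.29), Prss46 (1.85 ± 0.21) and Prss54 (1.20 ± 0.18). Among the falls were prostasin (Prss8, -1.51 ± 0.24) and matriptase (St14, -0.88 ± 0.31), epithelial proteases that SPINT2 inhibits, with Htra1 (-1.45 ± 0.14) and Prss23 (-1.24 ± 0.22) beside them. The hepatocyte growth factor activator Hgfac (-0.02 ± 0.17, adjusted p by limma 0.933) and hepsin (Hpn, 0.02 ± 0.15, 0.938) did not pass. These were singled out after their values were seen. Prss8 had levels of 6.89, 7.33 and 7.66 in the control, 7.06 and 6.58 in the low protein and 6.66 in the caloric restriction sperm, and 8.60 and 8.56 in the control and low protein epididymis, with no overlap between sperm and tissue.

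Of 38 other inhibitors and genes with Kazal or Kunitz domains 24 were tested, and 3 rose and 16 fell (median -0.86). Over all tested genes 18.4% were called higher and 30.1% lower (median -0.08). The largest falls were those of the matrix gene Smoc2 (-2.73 ± 0.15), the complement inhibitor gene Serping1 (-2.34 ± 0.17) and the Kunitz-domain precursor gene App (-2.18 ± 0.23). Slpi, a leukocyte protease inhibitor with WFDC domains that the naming rule does not take, rose by 0.88 ± 0.19, with levels of 6.46, 6.04 and 6.66 in the control, 6.61 and 6.45 in the low protein and 7.22 in the caloric restriction sperm, and 5.38 and 5.79 in the control and low protein epididymis. Of 8 listed Eppin partners and seminal proteins 7 were on the array and 2 were tested, and both fell, lactoferrin (Ltf, -1.47 ± 0.41) and clusterin (Clu, -1.51 ± 0.21). The seminal vesicle genes Svs2, Svs3b, Svs4, Svs5 and Svs6 were dim.

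In low protein sperm no member passed against control. Limma called 0 of 13587 genes there, with 3406 at an unadjusted p under 0.05, among them 15 of the 26 members, 13 lower and 2 higher. The median difference was -0.78 over the members and -0.06 over all tested genes. Both low protein arrays lay below all 3 control arrays for 11 of the 26, as was so for 22.4% of all tested genes, and above them for Spink2 and Wfdc15a (18.8% of all). The largest differences were -1.62 ± 0.58 for Wfdc8 (adjusted p by limma 0.16), -1.31 ± 0.48 for Spink11 (0.166) and -1.25 ± 0.35 for Spink10 (0.117).

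These values rest largely on 1 array. Low protein replicate 2 was the lowest of the 6 sperm arrays for 16 of the 26 members, against 34.0% of all tested genes, and the highest for 3 (29.1% of all). For Wfdc8 it read 8.65, with 10.96 in replicate 1 and a control mean of 11.43 ± 0.37 (SD, n = 3). Over the 15 members that were lower in sperm than in tissue, replicate 2 differed from the control mean by -1.95 to -0.10 and replicate 1 by -0.65 to 0.01. The median member difference was -0.27 without replicate 2 and -1.31 without replicate 1, and 0 and 20 members were then called, with the single low protein array left in each fit assumed to vary like the controls. Of all 13587 genes 0 and 5155 (37.9%) were called in the same fits. The epithelium markers moved in the same order, with a mean of 7.80 in replicate 1 and 7.38 in replicate 2. Their mean was 8.01 to 8.21 in control sperm. Smooth muscle markers followed the order of the epithelium (7.30, 6.94 and 7.62 to 7.79), as did fibroblast markers (8.04, 7.80 and 8.18 to 8.54). Markers of endothelium, leukocytes and adipocytes did not follow it. The sperm markers moved in the opposite order (10.26, 10.64 and 9.51 to 9.88). The part of these cell types in the member values was not tested.

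Spink2 and Wfdc15a were higher under low protein on both arrays. Spink2 differed by 0.68 ± 0.16 (adjusted p by limma 0.0882) and Wfdc15a by 0.65 ± 0.16 (0.0929), neither past the threshold. The SD of the 3 control arrays was 0.05 for Spink2 and 0.08 for Wfdc15a, smaller than either difference. The 15 late spermatid and sperm markers had a median difference of 0.74 in the same comparison, and none of them was called. Neither Spink2 nor Wfdc15a rose by more than that median. The part of sperm transcripts in general in these rises was not tested. Both low protein replicates lay close together, at 8.60 and 8.81 for Spink2 and 8.01 and 8.15 for Wfdc15a.

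In the single caloric restriction array, Spink2 and Wfdc15a rose against control sperm. Spink2 rose by 2.20 ± 0.20 (SE, n = 1 against 3 arrays; adjusted p by limma 0.00242), from 8.08, 7.97 and 8.04 in control to 10.23. Wfdc15a rose by 1.76 ± 0.20 (adjusted p by limma 0.00325), from 7.49, 7.46 and 7.33 to 9.18. Those were 2 of 26 members, against 5.56% of all tested genes called and 5.53% called higher. No member was called lower (0.0368% of all genes). With a single array in the group, the error was taken from the other sperm arrays. Over the 9 tested epithelium markers the median difference in this array was -0.48. Among them Gpx5 differed by -1.42 ± 0.21, from 5.81, 6.06 and 5.85 in control to 4.49. Acr rose by 1.80 ± 0.20 (adjusted p by limma 0.00308) in the same array, as did 4 other proteases of the list (Prss21, Prss54, Prss39 and Prss46) and 5 of 15 sperm markers.

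Spink14 showed the largest difference in the other direction. It read 6.42 in caloric restriction sperm, below 8.99, 9.15 and 8.66 in control and 8.94 and 7.04 in low protein sperm. The difference of -2.51 ± 0.60 did not pass (adjusted p by limma 0.0541), but it passed after cyclic loess (-2.34, 0.0159), without the filter on dim genes (0.04), and without either low protein array (7.8e-06 in both fits), when only the controls gave the spread. Spink5 followed with -1.24 ± 0.52 (0.285), and Wfdc6a with -0.95 ± 0.43 (0.322). The caloric restriction array lay below all 3 controls for 20 of 26 members, against 45.8% of all tested genes, and above them for 4 (Spink2, Wfdc15a, Wfdc17 and Wfdc3; 27.3% of all). The median difference was -0.41 over the members and -0.11 over all genes, beside an epithelium marker mean of 7.56. With 1 of the low protein arrays left out, whichever it was, 6 members were called, the 2 that rose and Spink14, Spink5, Wfdc11 and Wfdc6a lower, beside 2021 of all genes (14.9%), of which 1519 were higher.

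**Figure D3:**
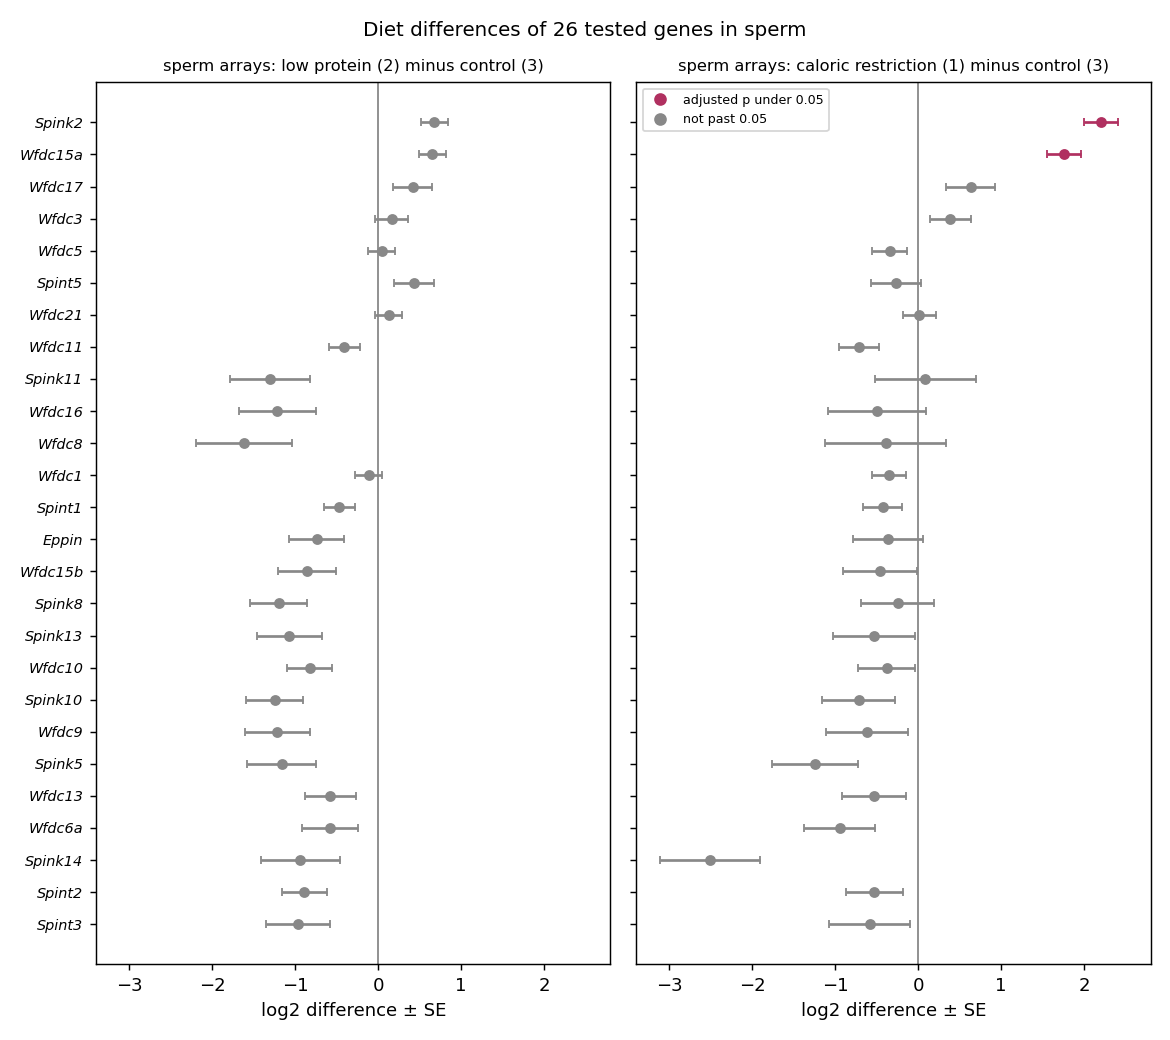
The x axes give the log2 difference from control sperm with its SE for the 26 tested members, for low protein on the left and caloric restriction on the right, both against the same 3 control arrays, in the gene order of the plot by array. Spink2 and Wfdc15a on the right are the only points past an adjusted p of 0.05, and Spink14 on the right lies farthest to the left at -2.51.

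The 2 diet comparisons share the control arrays, so that their differences are not independent. With the 3 restricted arrays against the 3 control arrays no member passed, while 2.75% of all tested genes did, 2.72% higher and 0.0294% lower. By limma 17 members had an unadjusted p under 0.05, 14 lower and 3 higher, as had 3592 of the 13587 genes, with a median of -0.69 over the members and -0.07 over all genes. Closest to the threshold were Wfdc15a at 1.02 ± 0.28 (adjusted p by limma 0.0857), Spink5 at -1.19 ± 0.35 (0.0956) and Spink10 at -1.07 ± 0.31 (0.097). All 3 restricted arrays lay below all controls for 11 of 26 members (18.1% of all genes) and above for 2 (15.0%). The count was 7 without low protein replicate 1, namely Spink2 and Wfdc15a higher and Spink5, Spink10, Spink14, Wfdc6a and Wfdc11 lower, and 1 without replicate 2 (Wfdc15a, higher), beside 10.5% and 4.81% of all genes.

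Between low protein and caloric restriction sperm limma called 0 members and 0 of 13587 genes, with 1316 at an unadjusted p under 0.05, among them 3 members. Spink2 differed by -1.52 ± 0.21 (low protein minus caloric restriction; adjusted p by limma 0.0646), Wfdc15a by -1.10 ± 0.21 (0.095) and Spink14 by 1.57 ± 0.64 (0.475). For Spink14, low protein replicate 1 at 8.94 was within the control range and replicate 2 at 7.04 was near the caloric restriction array. Without low protein replicate 1, 13 members were called, and without replicate 2 there were 3 (Spink2, Wfdc15a and Spink14), beside 14.4% and 2.33% of all genes. Those fits set 1 array against 1, and only the control arrays gave the spread.

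In epididymis, with 1 array per diet and no test, most members differed little between the diets. The median difference, low protein minus control, was 0.0046 over the 26 tested members and -0.01 over all genes, and 19 members differed by less than 0.2. Wfdc13 differed most among them, from 8.66 to 7.65 (-1.005), and was the only tested member to differ by 0.5 or more, which 1.04% of all tested genes did downwards and 0.810% upwards. Of the dim members, Spint4 read 4.26, 4.06 and 4.23 in the control, 4.16 and 4.27 in the low protein and 3.84 in the caloric restriction sperm, and 5.08 and 4.08 in the control and low protein epididymis. Wfdc18 read 4.57, 4.58 and 4.83 in the control, 4.41 and 4.80 in the low protein and 4.45 in the caloric restriction sperm, and 5.19 and 4.46 in the control and low protein epididymis. Both were lower under low protein in tissue, so that 3 of the 36 members differed downwards by that much (1.54% of all 19411 genes) and 0 upwards (1.34%). Spink11 (-0.49) and Spint5 came next, both under 0.5. Leukocyte markers had a mean of 7.58 in control and 7.10 in low protein epididymis, and their part was not tested.

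The low protein effect was also compared between sperm and epididymis. The difference of the effects (sperm minus epididymis) ran from -1.75 for Wfdc8 to 0.93 for Spint5, and its median was -0.70 over the members and -0.06 over all genes. Limma called 0 members and 0 of 13587 genes (610 at an unadjusted p under 0.05, none of them a member; smallest adjusted p 0.875). Without low protein sperm replicate 1 the count was 13 members, 12 of them lower, beside 12.1% of all genes, and without replicate 2 it was 0 members and 0 genes. In both fits only the control sperm arrays gave the spread.

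**Figure D4:**
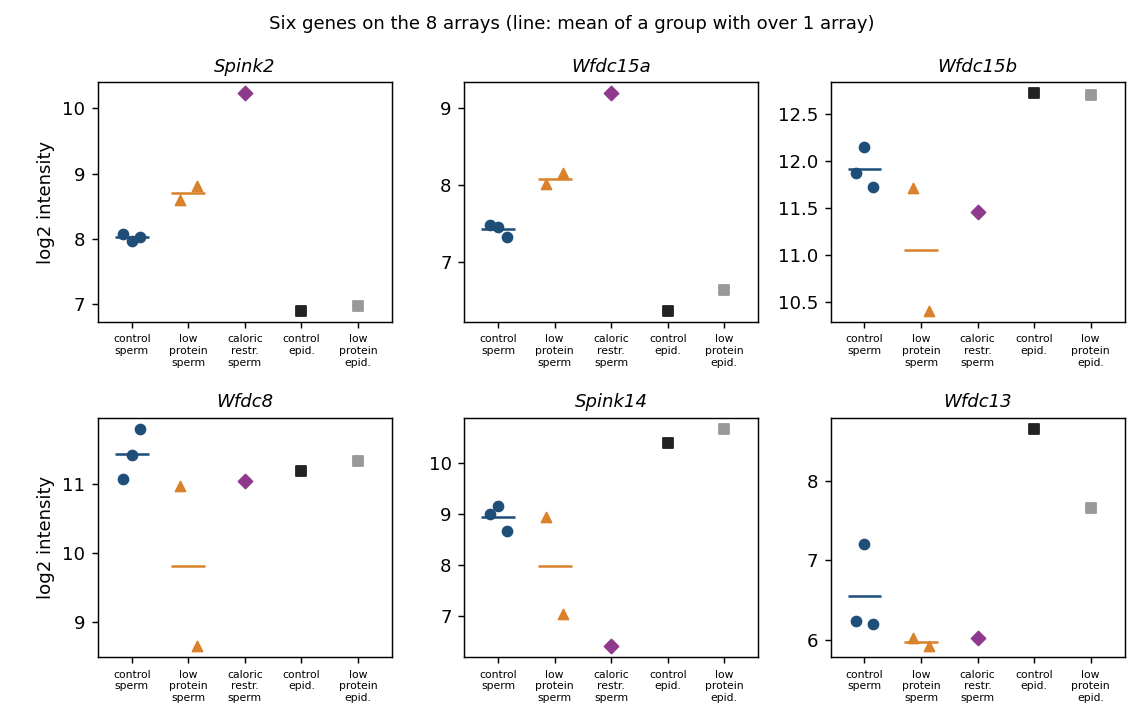
The y axis of each panel gives the log2 intensity of 1 gene on the 8 arrays, by group along the x axis, with a line at the mean of groups of more than 1 array and a separate scale per panel. Spink2 and Wfdc15a are lowest in epididymis and highest in caloric restriction sperm, Wfdc15b and Wfdc8 show the low value of low protein replicate 2, Spink14 is lowest in caloric restriction sperm at 6.42, and Wfdc13 differs between the 2 epididymis arrays.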

How the data were processed

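Each of 8 mouse RNA samples was hybridised to 1 Affymetrix array. The authors deposited log2 intensities, and the submitters' processing notes name RMA. RMA usually corrects background, quantile-normalizes and summarizes probes, so a change in total RNA is not visible. The sources used here give neither its version nor a genome build. Of 33660 probe sets, 21222 carried 1 gene by the platform annotation, 1541 several, and 10897 have no name here. Gene identifiers gave current symbols with RefSeq GRCm38.p6 for 21137 of them.

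Tests used limma 3.58.1 in R 4.3.3 (lmFit and eBayes, two-sided) over 13587 genes, on 6 sperm arrays for the diets and on 8 arrays for the tissues. Groups came from the sample titles. Replicates are not stated to be separate animals, so p-values measure only how these samples vary, which may be technical. The fits were tested on simulated data. The members, gene lists and alternatives were chosen with earlier results of these data known. By rule, array values were given for up to 12 rises and 12 falls between tissues, members called between sperm diets, the 10 brightest in epididymis and 5 brightest in control sperm, those differing by 0.5 between the epididymis arrays, and Eppin, Spint1, Spint2, Wfdc2, Spink1 and Spink2. Others were chosen after their values were seen, such as Wfdc1, Spint5, Wfdc11, Spink11, Wfdc6b and Spink12. So were the markers Lcn8, Ros1, Ovch2, Lyz2, Crisp4, Rnase9 and Gpx5. Protein sequences were not used here. The alternatives were other normalizations, filters, probe set rules, variance priors and thresholds, and leaving out each array.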

Additional observations from a re-analysis of the deposited data

How the results depend on the processing

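Between sperm and epididymis the count of 19 members called was 17 to 21 under 3 other normalizations, 2 other filters, averaged probe sets and 2 other variance priors, 13 at a threshold of 0.01, and 6 to 19 when 1 array was left out, the 6 without the low protein epididymis array. The 21 were called without a filter, of 36 members, and leaving out the lowest 50% gave 19 of 23. The other fits tested 26 members. Under the other normalizations the median change of all genes ran from -0.14 to 0.05, against -0.08. In low protein against control sperm the count of 0 became 2 at a threshold of 0.10 and 0 to 20 when 1 array was left out. For caloric restriction the count was 2 to 6 when 1 array was left out, for low protein against caloric restriction 0 to 13, and 2 at a threshold of 0.10. For the restricted diets together it was 1 after quantile normalization and after cyclic loess, 3 at a threshold of 0.10 and 0 to 7 when 1 array was left out, and for the difference of the low protein effect between tissues 0 to 13. Of all tested genes, cyclic loess called 237 in low protein against control sperm and 135 against caloric restriction, where 0 were called without it, and 589 in place of 373 for the restricted diets. Leaving out the caloric restriction array was chosen after seeing the data. Signs turned in values that were not called. After cyclic loess Wfdc11 was 0.0289 between sperm and epididymis and Wfdc5 -0.0185 in low protein sperm. With 1 array left out, the tissue differences ran from -0.22 to 0.71 for Spint5, -1.21 to 0.0368 for Wfdc16 and -1.52 to 0.24 for Wfdc8. The low protein differences ran from -0.0382 to 0.113 for Wfdc5, -1.89 to 0.0126 for Spink14 and -0.0732 to 0.396 for Wfdc3. For caloric restriction the ranges were -0.21 to 0.42 for Spink11 and -0.044 to 0.0453 for Wfdc21, and for the restricted diets -0.10 to 0.43 for Spint5 and -0.167 to 0.0411 for Wfdc5. The cause was not tested. The replicate numbers follow the order of the samples, so no paired analysis was possible because nothing pairs the arrays. With 1 or 2 arrays in most groups, and no detection values beside the intensities, differences of dim members are the least certain.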
